A study of Mus musculus with 12 samples.

Results

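RNA recovered with an antibody against FMRP, labelled ab17722, was compared between wild-type (WT) and Fmr1 knockout (KO) mouse ovaries by RNA immunoprecipitation and sequencing (RIP). The comparison uses the 6 RIP libraries, 3 KO and 3 WT, of the 12 libraries of the study. The other 6 are 3 KO and 3 WT input libraries, made from the same kind of homogenate. Every library came from whole ovaries of E16.5 embryos, with 5 pairs of ovaries pooled per library. All samples, KO and WT alike, carry the strain label B6.129P2-Fmr1tm1Cgr/J, and the WT animals are described as littermates of the KO. The samples are labelled as biological replicates of pooled ovaries. The KO carries its allele in every cell, and a whole ovary holds germ cells and somatic cells together. A difference in the share of a cell type and a difference in binding per cell therefore cannot be told apart in these libraries.

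FMRP is an RNA-binding protein that associates with messenger RNA and polyribosomes and regulates translation. It is best known from neurons, where its loss in humans causes fragile X syndrome. In the ovary it is linked to germ cells and to the ovarian insufficiency that accompanies premutations of the human gene. RNA recovered with the antibody from KO tissue, which lacks the protein, serves as the background of the immunoprecipitation. The ratio of WT to KO is therefore the quantity that bears on binding by FMRP.

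The deposited table held 14447 rows for 7525 Ensembl gene identifiers, out of 55416 genes annotated in the count files. Each row gave 1 fold enrichment per library and carried no position. In 4351 genes there was 1 row, and in 3174 genes there were 2 or more, of which 1654 had 2 rows, 752 had 3 rows and 63 had 10 or more. The gene with the most rows had 54. The 14447 rows held 12911 distinct sets of 6 values, since a row could be listed under several genes. Of these sets, 11581 stood in 1 gene, 1225 in 2 genes and 105 in 3 or more, up to 24 genes. Among the 1225 pairs of genes that shared a set, 1223 (99.8%) overlapped in the genome, 872 (71.2%) overlapped in exons and 845 overlapped on opposite strands. Which of the genes a shared row came from cannot be told. The sets shared by 3 or more genes were not checked for overlap. The identifiers are not paired with gene symbols in the sources used here, so genes other than Fmr1 are given by identifier or by position in the annotation of the count files (Ensembl release 104).

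The 6 libraries had like medians, from 1.72 to 1.78, but unlike upper ends. The fold enrichment exceeded by 1% of the rows was 25.1 in KO2, 21.7 in WT1 and 17.1 in KO3, and it was 10.4 in KO1, 10.3 in WT2 and 11.6 in WT3. The high and the low upper ends each occurred in both genotypes. On log2 values, Pearson's r across rows followed this split, with 0.834 between KO2 and WT1 and 0.605 between KO1 and KO2. By rank, over the 12842 distinct value sets with a mean of at least 1, libraries of 1 genotype had a mean Spearman's rho of 0.677 (0.633 to 0.723, 6 pairs) and libraries of different genotype had 0.635 (0.571 to 0.674, 9 pairs). These coefficients are across rows or value sets, which are not independent replicates, and no read depth stands behind the ratios.

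Fmr1, the gene altered in the KO, had 1 row (ENSMUSG00000000838, chrX:67722147-67761569, plus strand). The KO libraries gave it a fold enrichment of 0.388, 0.439 and 0.439, and the WT libraries 1.34, 1.43 and 1.40. All 3 WT values lay above all 3 KO values, and the KO values were under 1. The KO mean was 0.422 ± 0.029 and the WT mean 1.39 ± 0.045 (SD, n = 3 each), a WT over KO ratio of 3.30. This was the lowest KO mean of the table and the 8th highest ratio. The exact permutation test, two-sided, gave p = 0.1, the smallest that 3 against 3 libraries allow. The mean over the 6 libraries was below the minimum of 1 set for the row test. In the limma fit without that minimum the difference in log2(value + 1) was 0.75 (SE 0.054, adjusted p = 0.0216), the only call among 14447 rows. With a block for libraries of high or low upper end the difference was 0.74 (limma adjusted p = 0.148), and leaving out any 1 library gave 0.74 to 0.77 (limma adjusted p from 0.145 to 0.313). An unequal-variance test on the deposited ratios of the same 14447 rows, with the same adjustment, called none of them, Fmr1 included. In input RNA, Fmr1 stood at 85.6, 123 and 93.4 CPM (counts scaled to library size) in KO and at 204, 213 and 221 CPM in WT. The KO input held less Fmr1 RNA, with a log2 difference of 1.08 WT over KO (adjusted p = 0.00775, edgeR's quasi-likelihood test). The share of the Fmr1 RIP difference that comes with this RNA difference was not tested.

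Over all rows, WT and KO enrichments were close. Of 14365 rows with a mean of at least 1, none was called at an adjusted p under 0.05 (limma, 0.0%), the smallest adjusted p being 0.377. At an unadjusted p under 0.05, limma gave 858 rows with WT above KO (5.97%) and 414 with KO above WT (2.88%). An unequal-variance test on the deposited ratios was run on all 14447 rows, with no minimum mean and the same adjustment. It also called 0 rows, its smallest adjusted p being 0.172, and gave 485 and 356 rows at that unadjusted level. The middle 90% of rows had WT over KO ratios of group means from 0.690 to 1.47, with a median of 0.996. The 95% confidence interval of a row's difference in log2(value + 1) extended 0.30 to each side at the median row and 0.66 at the 90th percentile. Smaller differences could not be told from 0 for such rows, even before adjustment. A call after adjustment needed more than these widths. A row of ENSMUSG00000010277 differed by 0.69 (SE 0.093) and still had a limma adjusted p of 0.377.

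Which side held more rows depended on the measure. All 3 WT values exceeded all 3 KO values in 1205 tested rows (8.39%), and the reverse held in 972 (6.77%). WT means were at least 2 times the KO means in 79 rows (0.55%), and KO means were at least 2 times the WT means in 181 (1.26%). Of these, 38 of the 79 and 21 of the 181 had groups that did not overlap. Most of the large ratios on either side therefore rested on groups whose libraries overlapped, by a narrow margin on the WT side. With each value set counted once, 1097 of 12842 sets (8.54%) had all WT values above all KO values and 850 (6.62%) the reverse.

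**Figure D1:**
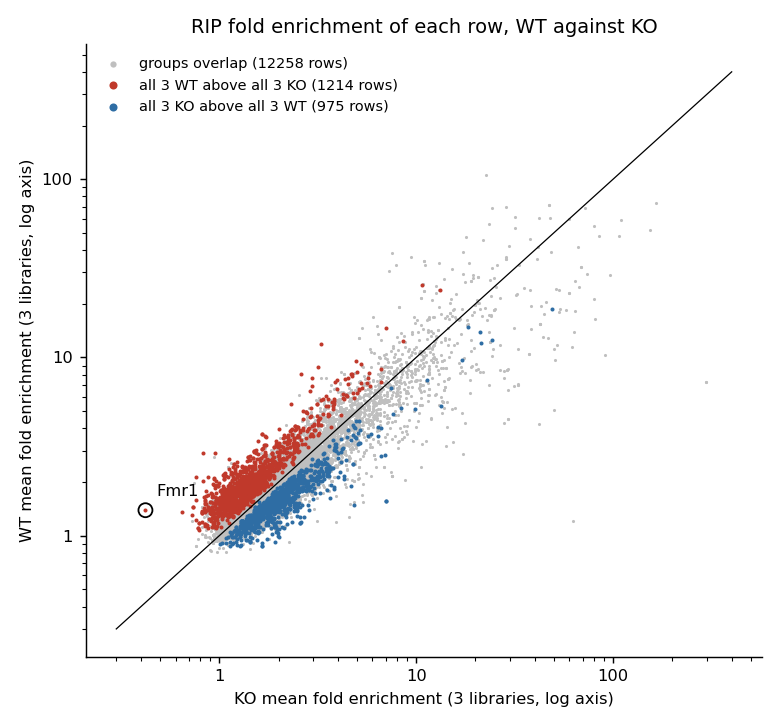
Mean fold enrichment of the 3 KO libraries (x axis, log scale) against the mean of the 3 WT libraries (y axis, log scale) for each of the 14447 rows, with the line of equality. Red points (1214 rows) have all 3 WT values above all 3 KO values, blue points (975 rows) the reverse, and grey points (12258 rows) overlap; the scatter about the line widens toward high enrichment, and Fmr1, circled, stands above the line at the low end.

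The shares of value sets whose groups lay apart differed between levels of enrichment. Among value sets with a mean of 1 to 1.5, all WT values exceeded all KO values in 11.5% of 3352 sets and the reverse held in 6.47%. At a mean of 2 to 4 both shares were near each other, 6.78% and 6.84% of 3480 sets. At a mean of 1.5 to 2 they were 8.65% and 7.47% of 4809 sets, and at 4 to 10 they were 6.01% and 3.28% of 915 sets. At a mean of 10 or more they were 1.40% and 2.10% of 286 sets. The WT side thus held the larger share in 3 of the 5 classes, and in no regular order of level. At unadjusted p under 0.05 (limma), the lowest class held 316 sets with WT above KO and 92 with KO above WT (over all levels, 5.97% and 2.93% of 12842 sets), and the highest class held 0 of either.

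Replicates also spread more at high enrichment. The median coefficient of variation was 13.9% in KO and 12.4% in WT in the lowest class, and 78.6% and 66.5% in the highest. Within the lowest class, libraries of 1 genotype correlated better by rank (mean Spearman's rho 0.212) than libraries of different genotype (0.053). Within the highest class the order was turned, -0.033 against 0.106. The strongest enrichments thus spread the most between libraries of 1 genotype. By rank, those libraries were no more alike than libraries of different genotype. The upper ends also differed between libraries of 1 genotype, and their part in this spread was not tested.

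A row can be enriched over 1 in every WT library and in no KO library. Of all 14447 rows, 51 had this pattern (44 value sets, since some are listed under several genes), in 49 genes on 19 chromosomes. The reverse pattern was found in 9 rows, in 9 genes. The share of all rows above 1 was 95.1%, 97.0% and 95.2% in KO1 to KO3, and 97.9%, 97.4% and 96.8% in WT1 to WT3. It was thus lower in KO1 and KO3 than in any WT library, while KO2 exceeded WT3. The part of these library shares in the 2 counts was not tested. The 51 rows had WT over KO ratios of 1.16 to 3.50 with a median of 1.64, so WT means reached 2.91 at most. Fmr1 was among them. The 49 genes had 69 other rows, in 31 of the genes, and 63 of these 69 also lay toward WT (57 of 63 with each value set counted once). Over all tested rows 7086 of 14365 (49.3%) lay toward WT. The genes with the reverse pattern had 13 other rows, of which 3 lay toward WT. Both sets of genes were chosen by the same libraries, and rows of a gene share their transcript. The other rows are therefore no independent evidence. Over all genes with 2 or more tested rows, 58.6% of pairs of rows from the same gene had the same direction. Here and below, a row lies toward WT where its mean of centred log2(value + 1) is higher in WT, and toward KO otherwise. In input RNA, 46 of the 49 genes could be tested, 23 were higher in WT and 1, Fmr1, was called by edgeR. Their median exonic length was 6031 bp and that of the 9 genes with the reverse pattern 5784 bp, against 3917 bp over all genes of the table.

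The rows with the smallest p toward WT came from 12 genes, none of which passed the test (limma adjusted p = 0.377 for each). The first was a row of ENSMUSG00000010277 (chr11:78152578-78181449, plus strand), with 1.08, 1.37 and 1.24 in KO and 2.84, 2.56 and 2.39 in WT. Its ratio was 2.11, the groups lay well apart, and it was 1 of 14 rows of its gene. The only row of a gene at chr1:179788037-179993168 read 0.842, 0.994 and 0.947 in KO and 1.67, 1.67 and 1.64 in WT. It lay under 1 in every KO library and over 1 in every WT library, with an SD of 0.018 in WT.

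The highest ratio of the 12, 3.50, was that of a gene at chrX:165173029-165223700. Its row stood at 0.744, 0.861 and 0.884 in KO and 4.19, 2.26 and 2.27 in WT. The WT1 library, one of those with a high upper end, was the highest, and the other 2 WT libraries still exceeded KO. A gene at chr3:125658920-125732268 had 0.758, 1.23 and 0.884 in KO and 3.83, 2.58 and 2.34 in WT, a ratio of 3.05, again with WT1 highest. Both genes had 2 rows, and in each gene both rows lay toward WT. Input RNA of the chromosome X gene was 58.5 CPM in KO and 50.9 CPM in WT (edgeR adjusted p = 0.810). That of the chromosome 3 gene was 19.6 CPM in KO and 15.6 CPM in WT (edgeR adjusted p = 0.873). The part of the input in these 2 rows was not tested.

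A gene at chrX:6845891-6907858 had 1 row, with 1.35, 1.36 and 1.32 in KO and 2.55, 2.58 and 2.17 in WT. Its input RNA ran the other way, 53.4 ± 9.67 CPM in KO and 34.2 ± 4.58 CPM in WT (SD, n = 3 each, edgeR adjusted p = 0.124). What the deposited ratio is relative to is not given in the sources used here, and the part of the input in this row was not tested. Of the other 7 genes, chr6:82923883-83007290 had a ratio of 2.02 (36.3 CPM in KO and 27.9 CPM in WT input), chr9:95739650-95833834 had 2.09 and chr11:102554542-102573063 had 2.47. The last 4 had ratios of 1.96 (chr16:13489722-13521476), 1.98 (chr19:4336029-4356250), 1.88 (chr2:10158382-10261340) and 1.61 (chr5:114912738-114944261).

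Toward KO, the 8 rows of smallest p likewise all missed the threshold (limma adjusted p = 0.377 for each). The single row of ENSMUSG00000003348 (chr10:80521087-80537811, minus strand) read 3.12, 2.24 and 2.75 in KO and 1.33, 1.22 and 1.28 in WT, a WT over KO ratio of 0.471. A gene at chr7:3695862-3704023 had 4.03, 4.24 and 4.60 in KO and 2.45, 1.68 and 2.08 in WT, a ratio of 0.482. Both rows exceeded 1 in all 6 libraries and were higher in each KO library than in any WT library. The other 6 genes had ratios from 0.461 (chr13:30843982-30895214) to 0.655 (chr11:68100190-68291649). Input RNA of these 8 genes was not called as different between the genotypes by edgeR. The largest log2 difference was 0.33 WT over KO, at chr7:3695862-3704023 (16.4 CPM in KO and 20.6 CPM in WT, edgeR adjusted p = 0.698).

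**Figure D2:**
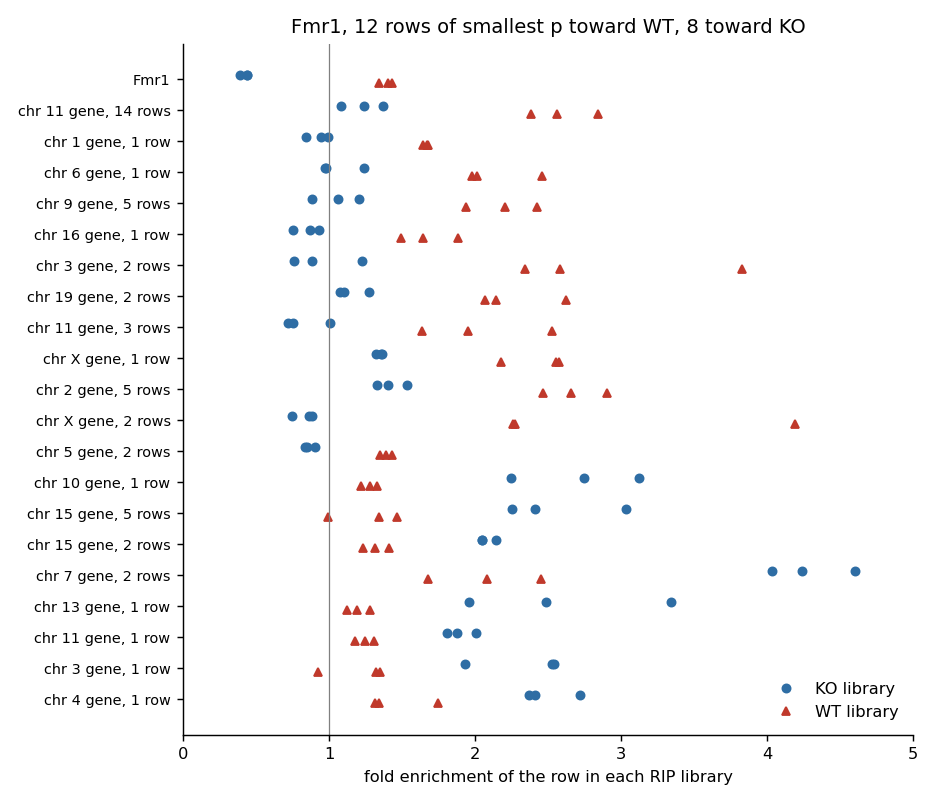
Fold enrichment in each RIP library (x axis, linear ratio) of the Fmr1 row, the 12 rows of smallest p toward WT and the 8 toward KO (y axis, with the number of tested rows of each gene); blue circles are KO libraries, red triangles WT libraries, and the grey line marks 1. In each row shown the 3 circles and the 3 triangles do not overlap. The KO values of the 12 rows toward WT run from 0.719 to 1.53, and the WT values of the 8 rows toward KO from 0.923 to 2.45.

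Counted by gene, with the rows of a gene averaged in each library, 0 of 7478 genes were called (limma, smallest adjusted p = 0.303). At unadjusted p under 0.05, 448 genes had WT above KO (5.99%) and 218 had KO above WT (2.92%). These shares nearly equal those of the rows. The gene of smallest p was the one at chr1:179788037-179993168, second among the rows, with a difference in log2(value + 1) of 0.47 (SE 0.060).

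Whether the rows of a gene agree was then counted over the 3159 genes with 2 or more tested rows. All rows lay toward WT in 685 genes, all toward KO in 722, and rows lay in both directions in 1752. Of 19372 pairs of rows from the same gene, 11345 (58.6%) had the same direction, against 50.0% of pairs from different genes. Of the variance of the row differences, 19.7% lay between genes. The SD was 0.11 between genes and 0.22 within genes on the log2(value + 1) scale. The SD within genes includes the error of each row's difference, which was not separated from real differences between rows. With rows listed under 1 gene only, the share of pairs in the same direction was 59.8%. With rows of a mean of 4 or more also left out, it was 61.0%, and the variance between genes was 29.3%. Rows of a gene share their transcript and their libraries, so they are not replicates of the comparison.

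A gene with more rows has more chances that 1 of them differs, so agreement is given by the number of rows and not compared between these classes. With 2 rows, 27.8% of 1649 genes lay wholly toward WT, 31.6% wholly toward KO and 40.6% in both directions. With 4 rows the shares were 14.0%, 10.8% and 75.2% of 315 genes, and with 6 or more rows 7.90%, 4.47% and 87.6% of 291. At 2 rows agreement on the KO side was the more frequent, and in the classes of 4, 5 and 6 or more rows agreement on the WT side was. None of these orders was tested.

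**Figure D3:**
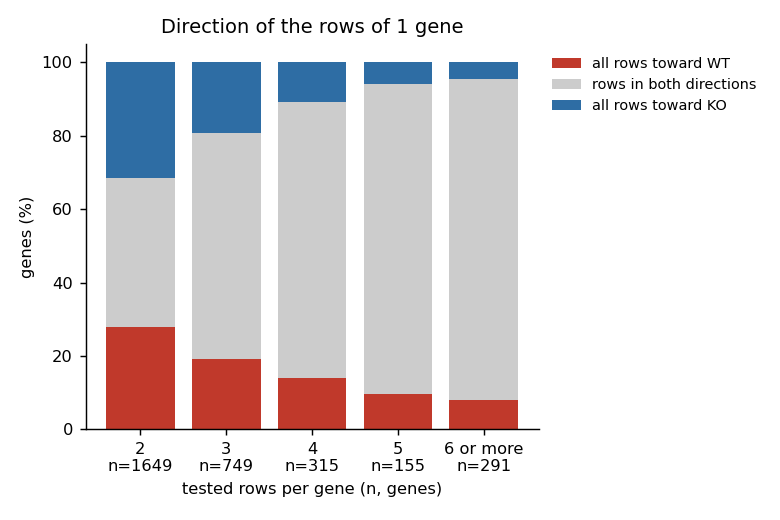
Share of genes (y axis, percent) by the number of tested rows per gene (x axis, with the number of genes under each bar), split into genes with all rows toward WT (red), rows in both directions (grey) and all rows toward KO (blue). The grey share is 40.6% at 2 rows and 87.6% at 6 or more, where more rows could differ.

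A stricter count takes only rows whose groups do not overlap, which were 8.39% of all tested rows toward WT and 6.77% toward KO. At least 2 such rows toward WT and none toward KO were found in 142 genes, and the reverse in 93 genes. Another 62 genes had such rows in both directions, and 2017 had none. Every row of the gene had groups apart toward WT in 38 genes and toward KO in 26. Genes with several rows apart were thus more often on the WT side, as single rows were.

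Of the 63 genes with 10 or more rows, 4 had all rows toward WT and 1 had all toward KO. These 5 were chosen for that pattern, so their direction is a description. ENSMUSG00000010277 had 14 of 14 rows toward WT and groups apart in 9 of them. By library, the median over its rows was 1.68, 1.45 and 1.78 in KO and 3.08, 2.59 and 2.81 in WT. Row ratios ran from 0.924 to 2.50, and in 1 row, the one under 1, the mean of the deposited values was higher in KO although the mean of centred log2 values was higher in WT. Under the alternatives that tested all 14 rows, 12 to 14 lay toward WT, with 12 when KO2 was left out. Of its rows with a mean of 4 or more, 3 of 3 did. Averaged over rows, the difference in log2(value + 1) was 0.49 (SE 0.14, limma adjusted p = 0.424). Its input RNA was alike in both genotypes, 287 ± 7.03 CPM in KO and 288 ± 6.05 CPM in WT (SD, n = 3 each).

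ENSMUSG00000020315 (chr11:30049395-30218175, minus strand, 17492 bp of exon) had 11 of 11 rows toward WT, and groups apart in 9. Its medians over rows were 1.18, 1.12 and 1.22 in KO and 1.95, 2.22 and 1.82 in WT, and each row ratio lay between 1.27 and 1.76. The KO medians were little above 1 and below all WT medians. The difference was 0.40 (SE 0.091, limma adjusted p = 0.388), and all 11 rows stayed toward WT under each alternative that tested all 11. Over rows with a mean of 4 or more, only 1 of them was tested. Input RNA was 526 ± 12.6 CPM in KO and 476 ± 27.7 CPM in WT (SD, n = 3 each, edgeR adjusted p = 0.762).

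A gene at chr6:119900930-120015633 had 10 of 10 rows toward WT and 7 with groups apart. Its medians were 1.80, 1.72 and 1.82 in KO and 2.81, 2.85 and 3.15 in WT, with a difference of 0.37 (SE 0.092, limma adjusted p = 0.392). A gene at chr6:113054326-113130396 had 10 of 10 rows toward WT and 5 with groups apart. Its medians were closer, 1.76, 1.33 and 1.49 in KO and 2.09, 2.03 and 2.02 in WT, but they too did not overlap. The 4 genes on the WT side were chosen for having every row toward WT, so that the rows share a direction was fixed by the choice. Groups lay apart in 5 to 9 of the rows of each.

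On the KO side, ENSMUSG00000057751 (chr4:154255187-154360170, plus strand) had 12 of 12 rows toward KO, and groups apart in 3. Its medians were 2.94, 2.69 and 3.09 in KO and 2.38, 2.17 and 2.87 in WT, so the WT3 library reached into the KO range. The difference in log2(value + 1) was -0.20 (SE 0.11, limma adjusted p = 0.648) and did not pass. Without WT1, 3 of its rows lay toward WT, and without KO1 or without WT2, 1 did.

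**Figure D4:**
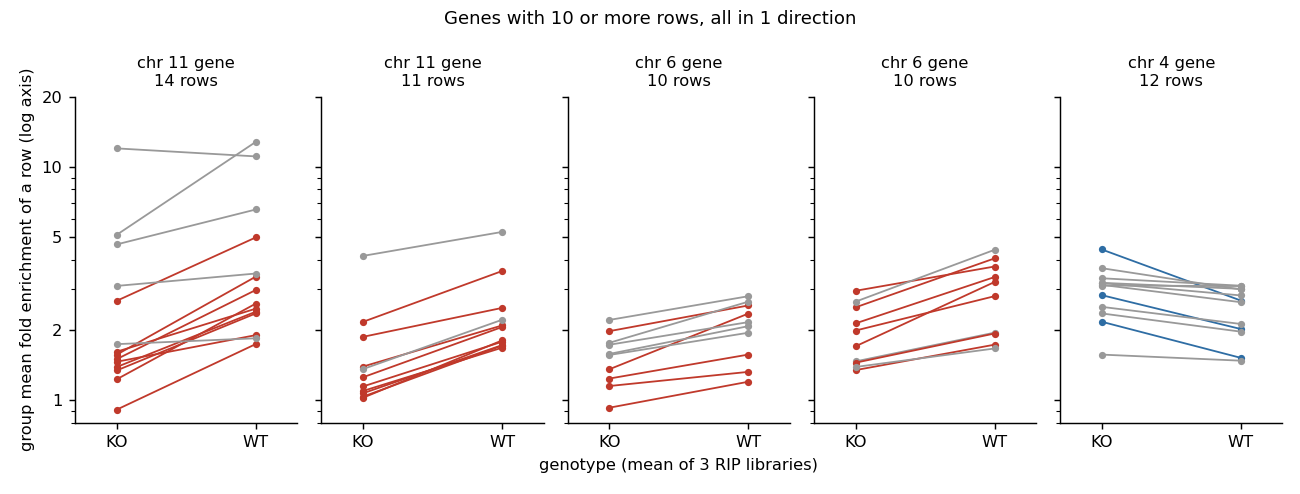
Mean fold enrichment of each row in KO and in WT (y axis, log scale), joined by a line, for the 5 genes with 10 or more rows that all lay in 1 direction; red and blue lines are rows whose groups did not overlap, higher in WT and in KO respectively, and grey lines are rows whose groups overlapped. The 9 red lines of each chromosome 11 gene run upward, and the chromosome 4 gene has 3 blue lines among 12.

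The genes with the most rows had no such agreement. The gene with 54 rows (chr8:120637580-125072461) had 26 toward WT and 28 toward KO, and 52 of its rows were also listed under other genes. A gene at chr4:137196080-137297941 with 101 exon blocks had 32 rows, 5 toward WT and 27 toward KO, with groups apart in 1 and 7. Its median row ratio was 0.863 and its difference in log2(value + 1) was -0.15 (SE 0.11, limma adjusted p = 0.734). A gene at chrX:150583803-150718413 had 28 rows, 19 toward WT and 9 toward KO, with groups apart in 4, all toward WT.

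Genes with 2 or more rows apart in 1 direction and none in the other were ranked by the mean size of those differences. Toward WT the 8 first were genes on chromosomes 7, 9, 10, 11, 15 and 18. The gene at chr11:102554542-102573063 had groups apart in all 3 of its rows, with ratios of 1.92, 2.47 and 2.79. In the last of these rows the KO values were 3.77, 2.76 and 2.95 and the WT values 17.1, 5.13 and 4.14, so WT1 carried much of the size. Its input RNA was 55.6 ± 12.2 CPM in KO and 41.1 ± 4.40 CPM in WT (SD, n = 3 each, edgeR adjusted p = 0.610). A gene at chr9:103182414-103227627 had 9 of 9 rows toward WT and 5 apart, with ratios of those from 1.32 to 3.12. A gene at chr7:109492987-109559677 had 7 of 7 rows toward WT and 3 apart, and the largest read 2.52, 2.98 and 3.21 in KO against 6.99, 8.32 and 4.02 in WT.

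Some of these genes had rows that did not follow. The gene at chr10:116886906-116899719 had 2 rows apart toward WT, but 2 of its 7 rows lay toward KO. The gene at chr15:84948890-85016165 had 6 of 7 rows toward WT, with input RNA of 239 CPM in KO and 175 CPM in WT (edgeR adjusted p = 0.190). The remaining genes, at chr15:100377451-100393369 and on chromosome 18, had all 3 and all 4 of their rows toward WT.

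Toward KO the first genes were a pair that overlap on opposite strands, chr11:87684407-87695239 and chr11:87686610-87691970. Both rows with groups apart were listed under both genes, which share 5361 bp, and which gene they came from cannot be told. In the larger of the 2 rows the KO values were 5.08, 13.8 and 2.28 and the WT values 1.43, 1.02 and 2.25, and the spread within KO exceeded the gap between KO3 and WT3. Input RNA of the first gene was uneven as well, 6.77, 3.32 and 51.6 CPM in KO and 0.316, 0.218 and 10.3 CPM in WT, with replicate 3 highest in both genotypes. A gene at chr11:52251687-52280224 had 3 of 3 rows toward KO, and its largest row read 3.75, 2.73 and 8.01 in KO and 1.60, 1.60 and 1.25 in WT. A gene at chr3:159545309-159644300 had 4 of 4 rows toward KO, with ratios of 0.646 and 0.518 in the 2 rows that lay apart.

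Genes whose rows disagreed showed groups apart in both directions within 1 gene. In the gene at chr19:4336029-4356250, which had 2 rows, one read 1.10, 1.27 and 1.08 in KO and 2.14, 2.62 and 2.07 in WT. The other row read 2.00, 2.30 and 1.51 in KO and 1.03, 1.23 and 1.11 in WT. The ratios were 1.98 and 0.582, and neither row passed the test (limma adjusted p = 0.377 and 0.434). The difference over the whole gene was 0.075 (SE 0.092) in log2(value + 1). Its input RNA was 64.9 ± 9.85 CPM in KO and 66.3 ± 1.92 CPM in WT (SD, n = 3 each).

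The widest gap was in the gene at chr17:35335172-35341029. There 1 row had a ratio of 1.35, and the other read 35.7, 32.7 and 77.8 in KO and 28.0, 16.53 and 11.3 in WT, a ratio of 0.382. The KO3 value made up much of that difference. In the gene at chr11:106154005-106163798, 1 row had 6.01, 9.09 and 5.68 in KO and 2.11, 2.69 and 3.71 in WT (ratio 0.410), and another row differed only slightly the other way (ratio 1.14). In the gene at chr11:98883769-98915015, a row of ratio 0.716 stood beside 1 of ratio 1.92, in which WT read 13.6, 8.97 and 6.04.

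In the gene at chr5:77457994-77497171, 2 rows lay apart toward WT (ratios 1.66 and 2.40) and 1 toward KO (ratio 0.671). The row of ratio 1.66 was shared with a neighbour that overlaps only its last 85 bp, from 77497087 to 77497171. The other 3 genes were chr5:137348371-137376931 (ratios 1.76 and 0.710), chr2:103593286-103627994 (0.622 and 1.30) and chr1:153094668-153208532 (0.760 and 1.72). In each gene with disagreeing rows described here, input RNA was not called as different by edgeR, the largest log2 difference being -0.08.

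**Figure D5:**
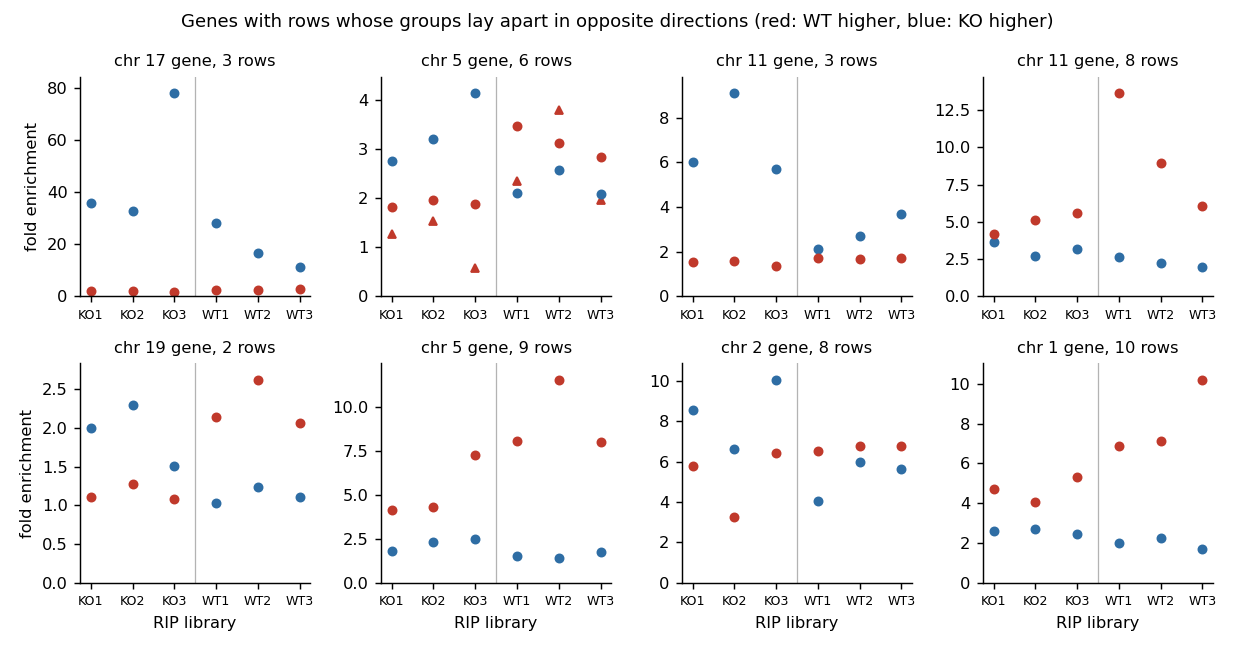
Fold enrichment (y axis, linear, from 0) in each RIP library (x axis, KO1 to WT3) of the rows whose groups lay apart in the 8 genes with the widest gap between rows of opposite direction. Red points are rows higher in WT, blue points rows higher in KO, each row with its own marker, and the vertical line parts the genotypes; the chromosome 19 gene has 1 row of each kind at a like level, and in the chromosome 17 gene the blue row reaches 77.8 in KO3.

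Whether 2 rows of a gene differ in their genotype difference was tested directly, with the 2 rows of highest mean of each gene. Of 3159 genes, none was called (limma, smallest adjusted p = 0.324), and 141 (4.46%) had an unadjusted p under 0.05. The gene with the smallest p was the one at chr19:4336029-4356250, with a difference between its rows of 1.06 in log2(value + 1) (SE 0.14, limma adjusted p = 0.324). The next was the gene at chr2:103593286-103627994, at -0.95 (SE 0.17, limma adjusted p = 0.969). The 95% confidence interval of such a difference extended 0.54 to each side at the median gene. Disagreement within a gene was therefore not shown for any gene after adjustment.

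Genes of 2 rows were described by features outside the RIP table. The 459 genes with both rows toward WT had a median exonic length of 4839 bp, a median span of 29761 bp and a median of 10 exon blocks. The 521 genes with both rows toward KO had 3892 bp, 15780 bp and 7, and the 669 genes with opposite rows lay between, with 4329 bp, 20572 bp and 8. The order of the exonic lengths and of the spans was kept when any 1 library was left out. Medians of input RNA were 53.5, 54.6 and 49.0 CPM, and medians of the input log2 difference were -0.0095, 0.032 and 0.0083 WT over KO. Median fold enrichment was 1.69 with both rows toward WT, 1.88 with both toward KO and 1.86 with opposite rows. Genes with opposite rows thus lay between the other classes in length but near the KO side in enrichment level. Length and enrichment level both differed between the genes wholly toward WT and wholly toward KO, and their parts were not tested.

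Input RNA of the genes with RIP rows hardly differed between the genotypes. Of 7007 such genes tested, 1 was called (0.0143%, edgeR adjusted p under 0.05), which was Fmr1, and 452 (6.45%) had an unadjusted p under 0.05. The input libraries held 18880238 to 25707718 counted reads.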

How the data were processed

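The authors computed the fold enrichments, a linear ratio deposited as 1 column per RIP library. Its denominator, the choice of rows and their positions are not given in the sources used. Tools named in the submitters' processing notes, with no role stated, were MACS2 2.1.0, BWA 0.7.12, FastQC and DESeq2 1.26.0, with the build GRCm38. Input read counts were deposited without normalization. Per the file headers they came from featureCounts 1.6.3 with Ensembl 104 gene models and no strand option, so reads of overlapping genes cannot be told apart. Positions follow these gene models, which are of a newer assembly than GRCm38.

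Ratios were tested with limma 3.58.1 under R 4.3.3 (eBayes with a trend). The values were log2(value + 1), minus the library's median, for the rows whose mean reached 1 (82 rows did not), with Benjamini-Hochberg adjustment at 0.05. The log2 difference understates changes of low values; ratios are of means of the deposited values. For genes, the centred values of distinct rows were averaged. Input counts were tested with edgeR 4.0.16 (TMM, filterByExpr, robust quasi-likelihood). Alternatives used sva 3.50.0 and DESeq2 1.42.0. The limma fit of rows and the edgeR fit of the input were run on simulated data. The fit by gene and the fit between rows of a gene were not. P-values measure the spread between libraries, in which the pools of ovaries and the handling of each library cannot be told apart. Same-numbered KO and WT libraries deviated in opposite ways (correlations of -0.601, -0.336 and -0.218), so the numbers were not used as pairs.

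Named were Fmr1; the 12 rows of smallest p toward WT and 8 toward KO; the 8 and 4 genes with several rows apart in 1 direction and the largest mean difference; the 8 genes with the widest gap between opposite rows; and the 3 genes with most rows. The genes with 10 or more rows in 1 direction, the test between rows of a gene, the rows that cross 1 and the level classes were added after values were seen. The members and lists were chosen with earlier results of these data known. The gene lists and cell type markers drawn up could not be applied, since the gene table used (GRCm38.p6) held 0 of the identifiers. The tissue label was therefore not checked against markers, and no sequence was matched to a row.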

Additional observations from a re-analysis of the deposited data

How the results depend on the processing

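No read depth stands behind the ratios, so counting error is unknown, and 3 libraries per genotype set the width of the intervals. Of the named rows, the 70 whose groups did not overlap (Fmr1 left out) stayed short of the threshold in all 1064 values under the alternatives. They also kept their direction, which their choice largely fixes. Other rows turned: 2 of the 14 of ENSMUSG00000010277 without KO2. Without the filter on low values, 1 row and 1 gene were called in place of 0, Fmr1 in both. Restricted to rows whose mean reached 4, which tests fewer rows, unadjusted p under 0.05 was reached by 21 rows toward WT and 6 toward KO and by 11 and 3 genes; 50 genes then had all rows toward WT, 38 all toward KO and 115 both, and 3, 2 and 3 genes had rows apart toward WT, toward KO and in both directions. The unequal-variance test, on all 14447 rows, gave 485 rows toward WT and did not call Fmr1. Fmr1 no longer passed with quantile normalization (0.71, limma adjusted p = 0.0683), a block for the upper end (0.74, adjusted p = 0.148) or 1 surrogate variable (0.74, adjusted p = 0.106); the causes were not tested. With the replicate number as a block, Fmr1 stood at 0.75 (limma adjusted p = 0.425), 0 rows were called with 743 toward WT and 331 toward KO at the unadjusted level, and 8 input genes were called; the numbers do not pair the samples. The input called 42 genes without the filter on low counts and 12 with DESeq2.

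Leaving out 1 library at a time called 0 rows and 0 genes, and the Fmr1 difference was 0.74 to 0.77. Unadjusted counts ran from 665 to 793 rows toward WT and from 289 to 626 toward KO, and from 339 to 438 and from 147 to 361 genes. Without WT1 they were 793 and 626 rows, and 361 genes toward KO. Genes with 2 or more rows apart numbered 208 to 250 toward WT and 161 to 197 toward KO, and 139 to 222 genes had rows apart in both directions, since 2 against 3 libraries overlap less easily. Genes with all rows toward WT numbered 663 to 749, with all toward KO 655 to 735. The input called 1 to 12 genes, 9 without KO1, 2 without WT1 and 12 without WT2. The test between rows of a gene called 0 genes.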
